A study of Mus musculus with 6 samples.

Results

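The genes described here are 40 cell cycle and DNA replication genes of mouse liver, taken by gene symbol from a deposited table of 23631 genes. Each symbol matched 1 row. They were sorted by role into 5 classes: 5 D cyclins and partner kinases, 3 genes of the cyclin E and Cdk2 step, 5 regulators, 14 replication genes and 13 mitotic genes. RNA sequencing gave reads per gene for 6 liver libraries of male C57BL/6J mice, an inbred laboratory strain. The labels call 3 libraries re-fed (refed here) and say that the other 3 came from a fast of 48 h. The treatment protocol speaks of normally fed mice for the first group, so whether a fast preceded feeding there is not settled, and no age is given. The question is how transcripts for cell division stand in the fed and in the fasted liver.

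A cell enters the cycle when D cyclins bind Cdk4 or Cdk6 and the kinase phosphorylates the retinoblastoma protein, which then frees E2F transcription factors. Cyclin E with Cdk2 carries the cell into S phase, where the MCM helicase, loaded by Cdc6 and Cdt1, opens DNA for the polymerases. Cyclins A and B with Cdk1, and the Aurora and Polo kinases, then drive mitosis, while p27 and the INK4 proteins hold the kinases back. Hepatocytes of an adult liver are mostly quiescent and can return to the cycle after tissue loss.

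Total counts ran from 29574528 to 36026753 per library, and 3 counts corresponded to between 0.0844 and 0.0946 CPM (the count scaled to 1e+06 reads with TMM factors). The labelled tissue matched its markers: 8 hepatocyte genes summed to 95600 to 114000 CPM in refed and 134000 to 155000 CPM in fasted libraries. These genes went both ways. Cps1 had 4180 to 5260 CPM in refed and 15100 to 25800 CPM in fasted libraries, and Ttr had 3730 to 4550 and 1200 to 2130 CPM. Tat, Apoa1, Ahsg and Hnf4a were also higher in each fasted library, while Alb and Apoa2 overlapped. Fasted replicate 3 stood apart, with a chi-square per gene of 232 and 206 against fasted replicates 1 and 2, where the other pairs within a group had 26.3 to 47.5. Results that rest on it are therefore given with and without it. In RNA of whole tissue, fewer cells of a type and less RNA per cell cannot be told apart. The labels do not say that the samples came from separate animals, so p-values measure only how these samples vary, and that variation may be technical.

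Of the 40 genes, 36 passed the filter on low counts, and Cdc6, Plk1, Aurkb and Bub1 did not. In edgeR's quasi-likelihood test, with p-values adjusted by Benjamini-Hochberg over 13248 genes, 7 were higher and 13 lower in fasted livers at an adjusted p under 0.05, and 16 did not pass. These are 19.4% and 36.1% of the 36, beside 29.2% of all tested genes higher and 30.2% lower, so the counts lie near those of the table as a whole. The median log2 fold change, fasted minus refed, was -0.38 beside 0 for all tested genes. When libraries were scaled by their totals and not by TMM, 3 genes were higher and 17 lower, or 8.33% and 47.2%, beside 21.7% and 38.3% of all tested genes, and the median of all tested genes lay at -0.21. Without fasted replicate 3, 8 were higher and 19 lower of 37 tested, or 21.6% and 51.4%, beside 31.6% higher and 32.7% lower among all genes. The number of higher genes came down to 4 of 38 tested without refed replicate 3 or without fasted replicate 1. Over the table, 7002 and 7050 genes changed in those runs, beside 7866 with all libraries. The number of lower genes came down to 8 (22.2%) without refed replicate 2, where 25.1% of all genes were lower. Fasted CPM lay above refed CPM without overlap for 9 of the 36 tested genes and below it for 12, where 32.8% and 34.4% of all tested genes did so. Individual genes of 1 class moved in opposite directions, and these are described next by role.

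The D cyclins differed from each other in direction. Ccnd1, which encodes cyclin D1 (ENSMUSG00000070348, chromosome 7 from 152115836 to 152125774, mm9), had the deepest fall of the 36 tested genes. Its reads numbered 1051, 1516 and 1362 in refed libraries and 56, 87 and 54 in fasted ones. The highest fasted library was far below the lowest refed one. In CPM it fell from 38.2 ± 4.78 to 2.01 ± 0.60 (SD, n = 3 each; log2 fold change -4.25 with an SE of 0.22, adjusted p = 6.29e-06 by edgeR). Its annotated span shares 818 bases with Oraov1, whose log2 fold change was -1.48 (SE 0.16). How reads over 2 genes were counted is not stated in the sources used here, so reads of the shared stretch cannot be assigned.

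Ccnd2, the gene of cyclin D2 (ENSMUSG00000000184, chromosome 6 from 127075797 to 127101066, mm9), also fell. Counts were 106, 132 and 207 in refed and 35, 36 and 27 in fasted livers, so the groups did not overlap. The level went from 4.31 ± 1.37 to 0.997 ± 0.155 CPM (SD, n = 3 each; log2 fold change -2.11 with an SE of 0.28, adjusted p = 0.000372 by edgeR). Ccnd3, which encodes cyclin D3 (ENSMUSG00000034165, chromosome 17 from 47642000 to 47736632, mm9), went the other way. It had 875, 1044 and 819 reads in refed and 1311, 1369 and 979 in fasted libraries. In CPM, all 3 fasted libraries were above the refed ones, though fasted replicate 3 was close to refed replicate 2. The rise, from 26.7 ± 3.15 to 37.2 ± 6.61 CPM (SD, n = 3 each), was 1.39-fold (log2 fold change 0.48 with an SE of 0.16, adjusted p = 0.0287 by edgeR). That call was lost without refed replicate 1 or 3 or fasted replicate 1 or 2 (edgeR adjusted p from 0.0664 to 0.109) and with library totals, where the log2 fold change was 0.26. Cyclin D1 and D2 transcripts thus fell, while cyclin D3 transcripts were not below the refed libraries in TMM-scaled CPM. For fasted replicate 3 that rests on a narrow margin (29.8 against 29.4 CPM in refed replicate 2) and on the scaling used.

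The kinases that D cyclins activate did not pass with all libraries. Cdk4 had 884, 1058 and 1024 reads in refed and 1244, 1112 and 750 in fasted livers. Fasted replicates 1 and 2 were above, and fasted replicate 3 below, the 3 refed libraries in CPM. Its log2 fold change was 0.13 (SE 0.18), or 0.32 without fasted replicate 3 (edgeR adjusted p = 0.0186), and its sign turned with library totals (-0.09) and without fasted replicate 1 (-0.01). Cdk6, the second D cyclin kinase, had 110, 111 and 192 reads in refed and 304, 275 and 125 in fasted libraries. Fasted replicates 1 and 2 were again above the refed libraries, and fasted replicate 3 was within their range. The log2 fold change of Cdk6 was 0.83 (SE 0.36, edgeR adjusted p = 0.0784), and it passed with DESeq2 (adjusted p = 0.0442), without fasted replicate 3 (1.14, edgeR adjusted p = 0.00169) and without refed replicate 3 (1.11, edgeR adjusted p = 0.0494). In both kinases, fasted replicate 3 was the lowest fasted library. Cdk4 shares 604 bases with Tspan31, an abundant neighbour with 4097 to 8222 reads per library.

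**Figure D1:**
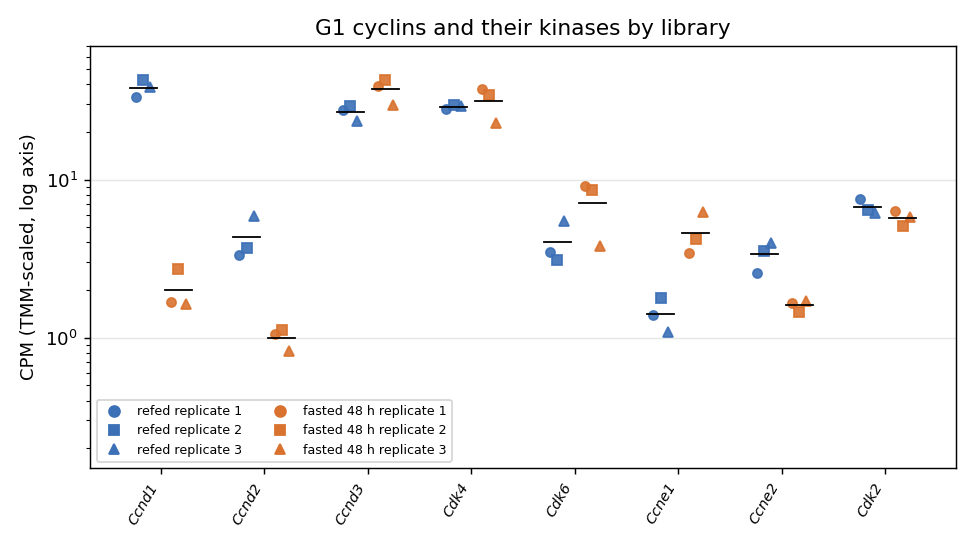
CPM (log axis) of D cyclins, cyclin E genes and their kinases in the 3 refed (blue) and 3 fasted (orange) libraries, with bars at the group means; the marker shape gives the replicate. Ccnd1 and Ccnd2 sit lower in fasted livers (2.01 against 38.2 and 0.997 against 4.31 CPM), Ccne1 sits higher, and fasted replicate 3 is the lowest fasted library for Ccnd3, Cdk4 and Cdk6.

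The E cyclins, which activate Cdk2 for the start of replication, moved in opposite directions. Ccne1 (ENSMUSG00000002068, chromosome 7 from 38883003 to 38892553, mm9) had 44, 63 and 38 reads in refed and 114, 135 and 204 in fasted libraries. Each fasted library was above each refed one. It rose 3.25-fold, from 1.41 ± 0.348 to 4.61 ± 1.44 CPM (SD, n = 3 each; log2 fold change 1.70 with an SE of 0.29, adjusted p = 0.00131 by edgeR). Ccne2 had 81, 126 and 140 reads against 55, 47 and 56, again without overlap but in the other direction. It fell from 3.36 ± 0.729 to 1.60 ± 0.129 CPM (SD, n = 3 each; log2 fold change -1.07 with an SE of 0.23, adjusted p = 0.00407 by edgeR). Its span shares 5622 bases with Ints8, which had a log2 fold change of -0.73 (SE 0.11). Cdk2 itself had 238, 227 and 217 reads in refed and 210, 163 and 190 in fasted livers, with overlapping CPM and a log2 fold change of -0.23 (SE 0.16, edgeR adjusted p = 0.243).

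Among the regulators, both E2F genes fell, and both kinase inhibitors and Rb1 rose. E2f1, an activating E2F factor (ENSMUSG00000027490, chromosome 2 from 154385143 to 154395628, mm9), had 109, 143 and 116 reads in refed and 12, 22 and 31 in fasted libraries. Even the highest fasted library was well under the lowest refed one. The level fell from 3.59 ± 0.387 to 0.662 ± 0.293 CPM (SD, n = 3 each; log2 fold change -2.43 with an SE of 0.32, adjusted p = 0.000369 by edgeR). E2f8, an atypical E2F that represses transcription and is known for its part in hepatocyte polyploidy, had 708, 759 and 201 reads against 68, 45 and 48. Refed replicate 3 was lower than the other refed libraries but still above the fasted ones. E2f8 fell from 16.5 ± 9.33 to 1.63 ± 0.354 CPM (SD, n = 3 each; log2 fold change -3.33 with an SE of 0.52, adjusted p = 0.00123 by edgeR). It shares 3639 bases with Gm2788, which fell from 1107, 1559 and 849 reads to 150, 212 and 87 (log2 fold change -2.91 with an SE of 0.35, adjusted p = 0.000354 by edgeR), so reads of the 2 genes may be mixed.

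Cdkn1b encodes p27, an inhibitor of Cdk2 complexes. It had 518, 494 and 613 reads in refed and 794, 682 and 937 in fasted libraries, and the groups did not overlap in CPM. It rose 1.54-fold (log2 fold change 0.63 with an SE of 0.15, adjusted p = 0.00661 by edgeR), a call that was lost with library totals (log2 fold change 0.42, edgeR adjusted p = 0.0523). Cdkn2c, which encodes the INK4 inhibitor p18 of Cdk4 and Cdk6, had 112, 106 and 113 reads against 193, 167 and 162. The refed libraries lay close together, and each fasted one was higher. Its level rose from 3.24 ± 0.276 to 5.30 ± 0.441 CPM (SD, n = 3 each; log2 fold change 0.71 with an SE of 0.16, adjusted p = 0.00558 by edgeR). Rb1, the retinoblastoma gene, had 306, 257 and 233 reads in refed and 369, 413 and 326 in fasted libraries. It rose 1.44-fold (log2 fold change 0.53 with an SE of 0.18, adjusted p = 0.0338 by edgeR), which did not hold without refed replicate 2 or 3 or fasted replicate 1 or 2 (edgeR adjusted p from 0.0639 to 0.122) or with library totals (0.31). Rcbtb2 and Lpar6, which overlap Rb1, had log2 fold changes of -0.81 (SE 0.19) and -1.51 (SE 0.44), opposite in sign to that of Rb1.

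A wider list of 36 other cell cycle regulators was read in the same fit. Of the 33 that passed the filter on low counts, 7 were higher and 14 lower in fasted livers and 12 did not pass, with a median log2 fold change of -0.22. These are 21.2% higher and 42.4% lower, beside 29.2% and 30.2% of all tested genes. The members of lowest p were Gadd45a, Cdkn1a and Skp2. Gadd45a, a growth arrest gene, had 66, 65 and 50 reads in refed and 627, 510 and 654 in fasted libraries, a 10.2-fold rise (log2 fold change 3.36 with an SE of 0.19, adjusted p = 7.97e-06 by edgeR). Cdkn1a, which encodes the inhibitor p21, had 160, 110 and 166 reads against 8500, 8818 and 4765. Its rise from 4.29 ± 1.04 to 225 ± 69.5 CPM (SD, n = 3 each) was 52.4-fold (log2 fold change 5.71 with an SE of 0.33, adjusted p = 1.35e-05 by edgeR), with fasted replicate 3 the lowest of the fasted libraries. Skp2, the ubiquitin ligase subunit that targets p27 for breakdown, had 72, 123 and 123 reads in refed but 4, 2 and 6 in fasted libraries. It fell 24.5-fold (log2 fold change -4.62 with an SE of 0.38, adjusted p = 4.11e-05 by edgeR). Of the kinase inhibitor genes, Cdkn1a, Cdkn1b and Cdkn2c thus rose, Cdkn1c (p57) did not pass (log2 fold change 0.07, adjusted p = 0.866 by edgeR), and Cdkn2a, Cdkn2b and Cdkn2d were too low for the test.

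**Figure D2:**
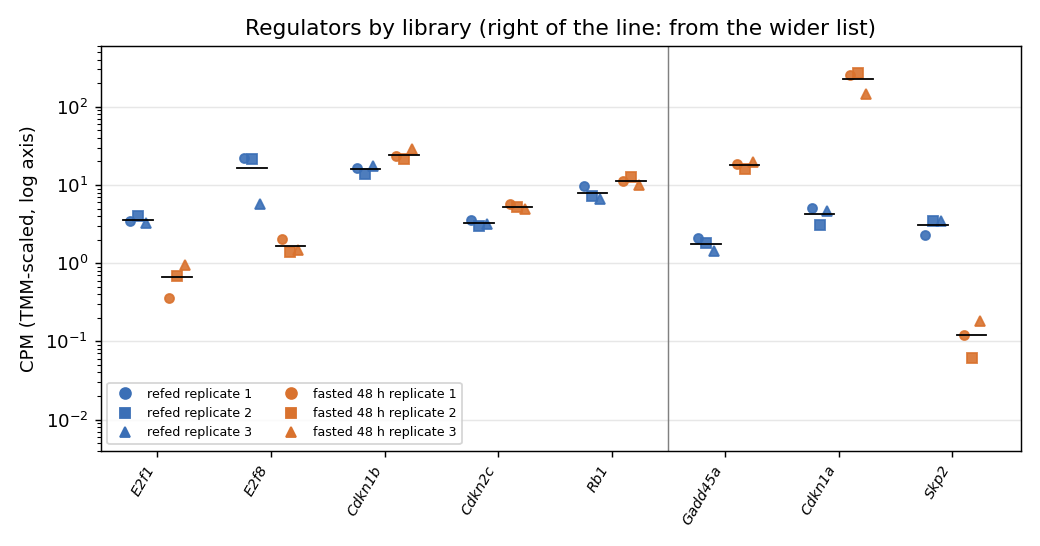
CPM (log axis) of the 5 regulators and, right of the line, of the 3 members of lowest p from the wider list of regulators, in refed (blue) and fasted (orange) libraries with bars at the group means. E2f1, E2f8 and Skp2 lie lower and Cdkn1b, Cdkn2c, Rb1, Gadd45a and Cdkn1a higher in fasted livers; refed replicate 3 is the low refed library for E2f8.

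Of the 14 replication genes, 13 passed the filter: 6 fell (Mcm5, Mcm6, Prim1, Pola1, Rrm1 and Tyms), 2 rose (Cdt1 and Pcna) and 5 did not pass, with a median log2 fold change of -0.75. The falls make up 46.2% and the rises 15.4% of the 13, beside 30.2% and 29.2% of all tested genes. With fasted replicate 3 left out, 8 fell and 1 rose of 14, beside 32.7% and 31.6% of all genes. Leaving out refed replicate 2, the refed library in which 11 of the 14 were highest, left calls of 1 fall and 3 rises of 13. Of all genes, 25.1% fell and 23.2% rose in that run. The median log2 fold change of the class was still negative there, at -0.55, so the calls changed more than the estimates. Over all tested genes, refed replicate 2 was the highest refed library for 26.1%.

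The loading factors of the MCM helicase stood apart from each other. Cdt1 (ENSMUSG00000006585, chromosome 8 from 125091915 to 125097028, mm9) had 43, 104 and 68 reads in refed and 133, 118 and 175 in fasted livers. In CPM, each fasted library exceeded each refed one. It rose from 2.07 ± 0.795 to 4.33 ± 0.882 CPM (SD, n = 3 each; log2 fold change 1.06 with an SE of 0.30, adjusted p = 0.0146 by edgeR), or with an edgeR adjusted p of 0.0566 without refed replicate 3. Cdc6 had 9, 33 and 9 reads in refed and 1, 2 and 4 in fasted libraries and did not pass the filter of the main test. Runs with all libraries that did test it called it lower, at a log2 fold change of -2.79 with DESeq2 and -2.76 when every gene with a read was tested. With 1 library left out, it entered and was lower without refed replicate 3 (-3.05) and without fasted replicate 1 (-2.37) or 2 (-2.64). Without fasted replicate 3 its log2 fold change was -3.33 (edgeR adjusted p = 0.0117).

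The subunits of the MCM helicase, which form a ring of 6 different proteins, did not change alike. Mcm5 had 63, 177 and 115 reads in refed and 20, 32 and 68 in fasted livers. The groups overlapped in CPM, since fasted replicate 3 was just above refed replicate 1. It fell from 3.41 ± 1.5 to 1.22 ± 0.761 CPM (SD, n = 3 each; log2 fold change -1.48 with an SE of 0.49, adjusted p = 0.0321 by edgeR), or by a log2 fold change of -2.10 without fasted replicate 3. Mcm6 had 158, 334 and 185 reads against 44, 31 and 143, so that fasted replicate 3 had over 3 times the reads of each other fasted library. It fell from 6.55 ± 2.48 to 2.21 ± 1.86 CPM (SD, n = 3 each; log2 fold change -1.56 with an SE of 0.55, adjusted p = 0.0416 by edgeR), or by -2.51 without fasted replicate 3. Both calls depended on single libraries: that of Mcm5 was lost without refed replicate 2 or 3 or fasted replicate 1 or 2 (edgeR adjusted p from 0.0625 to 0.11), and that of Mcm6 without any 1 of these or refed replicate 1 (edgeR adjusted p from 0.0565 to 0.14). Neither passed when every gene with a read was tested (edgeR adjusted p = 0.0643 for Mcm5 and 0.165 for Mcm6).

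The other 4 subunits did not pass. Mcm3 and Mcm4 had log2 fold changes of -0.88 (SE 0.38) and -0.86 (SE 0.34), and both passed without fasted replicate 3 (-1.26 and -1.18, edgeR adjusted p = 0.0159 and 0.0117) and without refed replicate 1 (-1.16 and -1.13, edgeR adjusted p = 0.0248 and 0.0141), as they did with DESeq2 (adjusted p = 0.0469 and 0.034). Mcm2 had 82, 217 and 124 reads in refed and 166, 204 and 152 in fasted livers, and its log2 fold change of 0.38 (SE 0.31) became 0.79 when refed replicate 2 was left out (edgeR adjusted p = 0.0351). Mcm2 was thus the subunit with a positive estimate. Mcm7 had a log2 fold change of -0.28 (SE 0.17, edgeR adjusted p = 0.181), and its neighbours Cops6 and Ap4m1, which overlap it, had positive ones (0.51, SE 0.14, and 1.44, SE 0.17).

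Primase and polymerase alpha, which lay down the first primers on each new strand, both fell. Prim1, the catalytic primase subunit, had 109, 121 and 80 reads in refed and 50, 40 and 68 in fasted livers (log2 fold change -0.92 with an SE of 0.27, adjusted p = 0.0182 by edgeR). Pola1, the catalytic polymerase subunit, had 88, 87 and 96 reads against 46, 40 and 69 (log2 fold change -0.75 with an SE of 0.25, adjusted p = 0.0295 by edgeR). Fasted replicate 3 was the highest fasted library for both, and neither overlapped with the refed group. Leaving out 1 library ended the call of Prim1 in 4 cases (refed replicates 1 and 2, fasted replicates 1 and 2; edgeR adjusted p from 0.0541 to 0.0663) and of Pola1 in each case but that of fasted replicate 3 (edgeR adjusted p from 0.0591 to 0.0951).

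Of the genes that supply nucleotides, thymidylate synthase (Tyms) had 259, 278 and 251 reads in refed and 138, 153 and 117 in fasted livers. Its 2 groups were tight and well apart. Tyms fell from 7.71 ± 0.53 to 4.15 ± 0.594 CPM (SD, n = 3 each; log2 fold change -0.89 with an SE of 0.16, adjusted p = 0.00174 by edgeR). The subunits of ribonucleotide reductase differed in sign. Rrm1, the large subunit, had 285, 389 and 321 reads against 229, 257 and 198 (log2 fold change -0.48 with an SE of 0.16, adjusted p = 0.0302 by edgeR), a fall that did not pass without refed replicate 2 or 3 or fasted replicate 1 or 3 (edgeR adjusted p from 0.0507 to 0.125). Rrm2, the small subunit, had 353, 479 and 284 reads against 503, 504 and 487 (log2 fold change 0.48 with an SE of 0.18, adjusted p = 0.0515 by edgeR), and passed without refed replicate 2 (0.65, edgeR adjusted p = 0.023). Pcna, the sliding clamp of the polymerases, had 604, 718 and 640 reads in refed and 770, 697 and 957 in fasted livers. Its rise was small (log2 fold change 0.36 with an SE of 0.14, adjusted p = 0.0473 by edgeR) and held in 3 of 14 alternatives. It was lost when any library but fasted replicate 2 was left out (edgeR adjusted p from 0.0628 to 0.139), and with DESeq2 (adjusted p = 0.0701), limma-voom (adjusted p = 0.0531) and library totals (log2 fold change 0.16, edgeR adjusted p = 0.401), among others.

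**Figure D3:**
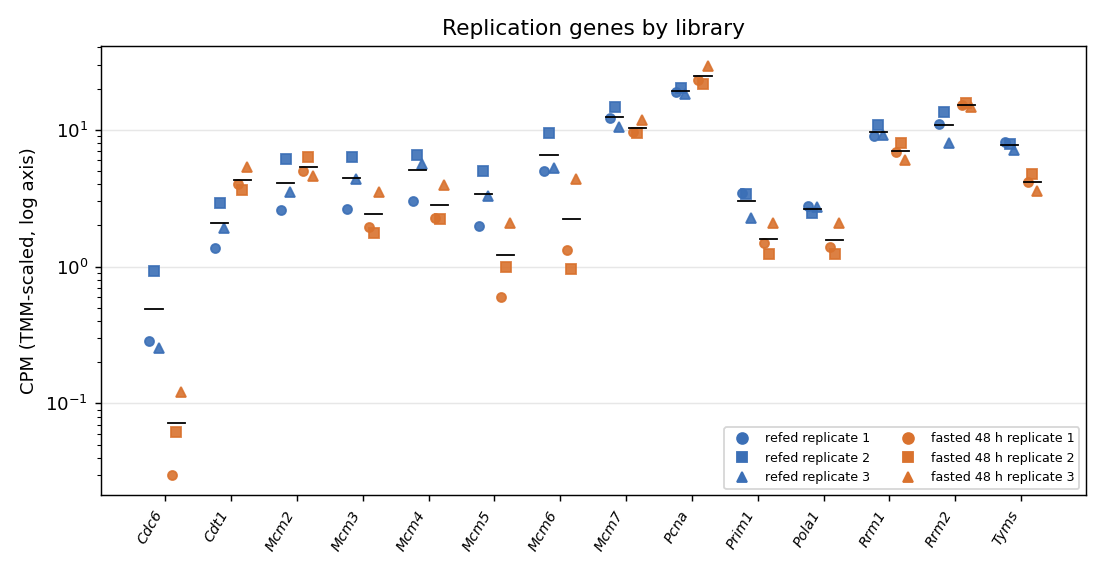
CPM (log axis) of the 14 replication genes in refed (blue) and fasted (orange) libraries, with bars at the group means; the marker shape gives the replicate. Mcm5, Mcm6, Prim1, Pola1, Rrm1 and Tyms lie lower and Cdt1 and Pcna higher in fasted livers, and fasted replicate 3 (orange triangle) is the highest fasted library for Mcm3 to Mcm7.

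Among 45 further replication genes, 43 passed the filter, and 9 were higher, 18 lower and 16 did not pass, with a median log2 fold change of -0.52. The shares were 20.9% higher and 41.9% lower, beside 29.2% and 30.2% over all tested genes. The 3 of lowest p were Pold4, Orc2 and Pold2. Pold4, the smallest subunit of polymerase delta, had 190, 242 and 234 reads in refed and 871, 858 and 750 in fasted livers (log2 fold change 1.96 with an SE of 0.12, adjusted p = 1.3e-05 by edgeR). Pold2, another subunit of the same enzyme, had 426, 485 and 452 reads against 157, 157 and 157 (log2 fold change -1.47 with an SE of 0.12, adjusted p = 4.08e-05 by edgeR). Subunits of 1 polymerase thus moved in opposite directions. Orc2, of the origin recognition complex, had 137, 203 and 169 reads against 708, 616 and 711 (log2 fold change 2.06 with an SE of 0.15, adjusted p = 2.01e-05 by edgeR).

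Promoter windows from RefSeq (GRCm38, the 250 bases before the gene start) were at hand for 33 of the 40 genes. E2F sites, searched as TTTCGCGC or TTTGGCGC on either strand, were in the windows of 4 of them, Mcm5, Mcm6, Pola1 and Cdk1, and in 0.654% of 32851 windows of all genes. The matches of Mcm5 and Mcm6 include pairs that overlap each other. These 4 are all the members in which a match was found. Their transcripts were lower in fasted livers in the test with all libraries, though the calls of Mcm5, Mcm6 and Pola1 depended on single libraries. Other members that fell, among them Prim1, Rrm1, Aurka and E2f8, had windows without a match. Capitals mark the E2F matches and, in Cdk1, also a TTTGAA match (the CHR element of mitotic promoters). Cdk1 is shown without the 26 bases next to its start, which an annotated exon covers. A match of letters is a description and not evidence of binding.
Mcm5 (chr8:75109259-75109508, plus strand): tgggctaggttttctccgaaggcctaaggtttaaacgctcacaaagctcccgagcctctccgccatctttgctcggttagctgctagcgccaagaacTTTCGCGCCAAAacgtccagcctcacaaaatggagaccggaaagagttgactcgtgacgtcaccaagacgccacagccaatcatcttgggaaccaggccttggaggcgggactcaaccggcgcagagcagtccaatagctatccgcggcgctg
Mcm6 (chr1:128359706-128359955, minus strand): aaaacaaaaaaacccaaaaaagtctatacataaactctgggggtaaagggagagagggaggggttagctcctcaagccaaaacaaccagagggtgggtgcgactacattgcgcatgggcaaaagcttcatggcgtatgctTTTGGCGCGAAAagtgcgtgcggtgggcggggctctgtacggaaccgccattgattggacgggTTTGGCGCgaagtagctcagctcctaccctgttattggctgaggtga
Pola1 (chrX:93632156-93632405, minus strand): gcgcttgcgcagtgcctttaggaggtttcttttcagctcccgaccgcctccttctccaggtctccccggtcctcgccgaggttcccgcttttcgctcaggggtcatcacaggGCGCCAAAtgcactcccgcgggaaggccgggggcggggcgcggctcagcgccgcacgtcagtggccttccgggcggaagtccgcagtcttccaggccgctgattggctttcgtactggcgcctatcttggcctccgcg
Cdk1 (chr10:69352939-69353162, minus strand): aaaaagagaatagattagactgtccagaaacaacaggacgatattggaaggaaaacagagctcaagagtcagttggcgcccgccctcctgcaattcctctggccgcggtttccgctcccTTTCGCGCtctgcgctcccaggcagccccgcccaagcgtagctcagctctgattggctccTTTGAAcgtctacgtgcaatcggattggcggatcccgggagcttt

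Mitotic transcripts were scarce in liver and depended on fasted replicate 3. The 13 genes together had 294, 399 and 240 reads in refed libraries and 80, 116 and 427 in fasted replicates 1, 2 and 3. Fasted replicates 1 and 2 were thus below, and fasted replicate 3 above, the 3 refed libraries in this sum. In CPM the sum was 9.11 ± 2.21 in refed and 6.33 ± 5.81 in fasted libraries (SD, n = 3 each). Fasted replicate 3 was the highest fasted library for 12 of the 13, Aurka being the exception, and the highest of the 6 libraries for 9. Over all tested genes it was the highest fasted library for 40.5% and the highest of the 6 for 21.3%.

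Of the 10 mitotic genes that passed the filter, 2 fell with all libraries, where 30.2% of all tested genes were lower, and 8 did not pass. Cdk1, the mitotic kinase (ENSMUSG00000019942, chromosome 10 from 68799383 to 68815686, mm9), had 53, 57 and 40 reads in refed and 6, 7 and 25 in fasted livers. It fell from 1.47 ± 0.292 to 0.386 ± 0.325 CPM (SD, n = 3 each; log2 fold change -1.92 with an SE of 0.51, adjusted p = 0.0114 by edgeR), or by -2.86 without fasted replicate 3. Aurka, the Aurora A kinase of the spindle poles, had 87, 99 and 73 reads against 20, 38 and 36. It fell from 2.53 ± 0.40 to 0.959 ± 0.313 CPM (SD, n = 3 each; log2 fold change -1.40 with an SE of 0.30, adjusted p = 0.00385 by edgeR). Both kinases were lower in each fasted library than in each refed one, fasted replicate 3 included.

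Mki67, which encodes the proliferation marker Ki-67, had 33, 46 and 11 reads in refed and 4, 12 and 100 in fasted livers. Its fasted libraries thus include the highest and the lowest of the 6. The log2 fold change was 0.42 (SE 1.01, edgeR adjusted p = 0.742) and turned to -1.83 without fasted replicate 3 (edgeR adjusted p = 0.0536). Top2a, the topoisomerase that untangles chromosomes, had 28, 56 and 30 reads against 4, 7 and 51. Its log2 fold change was -0.81 (SE 0.80, edgeR adjusted p = 0.413), or -2.69 without fasted replicate 3 (edgeR adjusted p = 0.000918). In both genes, fasted replicates 1 and 2 were near or below the lowest refed library while fasted replicate 3 was among the highest.

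Cyclin B2 (Ccnb2), Cdc20, which activates the anaphase-promoting complex, and survivin (Birc5) resembled them. Ccnb2 had 13, 23 and 11 reads in refed and 3, 2 and 27 in fasted livers, Cdc20 had 16, 19 and 6 against 1, 4 and 17, and Birc5 had 23, 26 and 32 against 8, 13 and 53. None of the 3 passed with all libraries (log2 fold change -0.49, -0.83 and -0.07; SE 0.84, 0.80 and 0.63). Without fasted replicate 3 they passed, at -2.53, -2.34 and -1.29 (edgeR adjusted p = 0.00435, 0.0201 and 0.0133). With Cdk1, Aurka and Top2a, that made 6 lower and 0 higher of 10 tested mitotic genes without fasted replicate 3, beside 32.7% lower and 31.6% higher among all genes. A pseudogene named after Ccnb2, Ccnb2-ps, had 19, 22 and 21 reads in refed and 1, 3 and 3 in fasted libraries. It fell as well (log2 fold change -3.02 with an SE of 0.43, adjusted p = 0.000505 by edgeR). Reads may be split between Ccnb2-ps and Ccnb2, and pseudogenes under other names were not searched. Elovl1 and Exosc9, which overlap Cdc20 and Ccna2, had log2 fold changes of -1.84 (SE 0.18) and 0.89 (SE 0.11).

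Ccnb1, Ccna2 and Bub1b did not pass with or without fasted replicate 3. Their log2 fold changes were -0.16 (SE 0.94), 0.14 (SE 0.49) and 0.76 (SE 0.35) with all libraries, and -1.76, -0.57 and 0.47 without fasted replicate 3. Bub1b, of the spindle checkpoint, was the mitotic gene whose fasted CPM lay above refed CPM in each library, at 18, 13 and 26 against 10, 12 and 13 reads. Plk1 (1, 5 and 2 against 2, 6 and 17 reads), Aurkb (5, 12 and 4 against 0, 0 and 19) and Bub1 (1, 6 and 2 against 0, 0 and 6) were too low for the test. In each of these 3, fasted replicate 3 again held most of the fasted reads.

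Markers of neutrophils, Kupffer cells and, in most cases, stellate cells were highest in fasted replicate 3 among the fasted libraries. The 6 neutrophil markers summed to 0.507 to 1.45 CPM in refed libraries, 1.05 and 1.89 CPM in fasted replicates 1 and 2, and 138 CPM in fasted replicate 3, where all 6 were highest among the fasted libraries. S100a9 had 2344 reads there, S100a8 had 1608, and Mpo and Elane, granule enzymes made by neutrophil precursors, had 374 and 162. Mpo and Elane had at most 5 reads in each other library, while Ly6g had 1 read in fasted replicate 3 and 0 elsewhere. Csf3r had 43 reads in fasted replicate 3 and 9 to 30 elsewhere, and did not pass (log2 fold change 0.31, adjusted p = 0.727 by edgeR). The 8 Kupffer cell markers, of liver macrophages, summed to 69.7 to 88.5 CPM in refed libraries and to 20.6, 62.1 and 100 CPM in fasted replicates 1 to 3, and all 8 were highest in fasted replicate 3 among fasted libraries. They did not move alike: Emr1 fell (log2 fold change -1.38, adjusted p = 0.0167 by edgeR) and the other 7 did not pass. Among those 7, Marco had a positive estimate (1.70), with 1.89 to 3.61 CPM in refed libraries and 15.7 CPM in fasted replicate 3.
The 9 lymphocyte markers summed to 3.0 to 4.29 CPM in refed and 1.89 to 4.42 CPM in fasted libraries, with 5 of the 9 highest in fasted replicate 3 among fasted libraries. The 6 erythroid markers found summed to 90.9 to 125 CPM in refed and 18.7 to 29.8 CPM in fasted libraries, with 4 of the 6 highest there. Nearly all of that sum was Alas2 (89.5 to 123 against 14.1 to 22.2 CPM), while Klf1 rose (log2 fold change 1.98, adjusted p = 0.000541 by edgeR) and Epor did not pass. Endothelial markers ranged from 70.1 to 121 CPM in refed and 92.7 to 150 CPM in fasted libraries, and cholangiocyte markers from 40.9 to 55.1 and 25.3 to 39.4 CPM. In the endothelial list Lyve1, Stab1 and Pecam1 rose (log2 fold change 2.55, 0.77 and 0.72), and the other 5 did not pass. Among cholangiocyte markers Spp1 fell (-0.93), Sox9 and Epcam rose (0.98 and 0.94), and 3 did not pass. The 8 stellate cell markers summed to 129 to 155 CPM in refed libraries and to 233, 225 and 311 CPM in fasted replicates 1 to 3, with 7 of the 8 highest in fasted replicate 3 among fasted libraries. Dcn carried most of that rise (63.2 to 72.7 against 155 to 222 CPM), Lrat fell (log2 fold change -1.74, adjusted p = 0.0011 by edgeR), the other 6 did not pass, and the list's median log2 fold change was 0.08. The part of these cells in the mitotic counts was not tested.

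**Figure D4:**
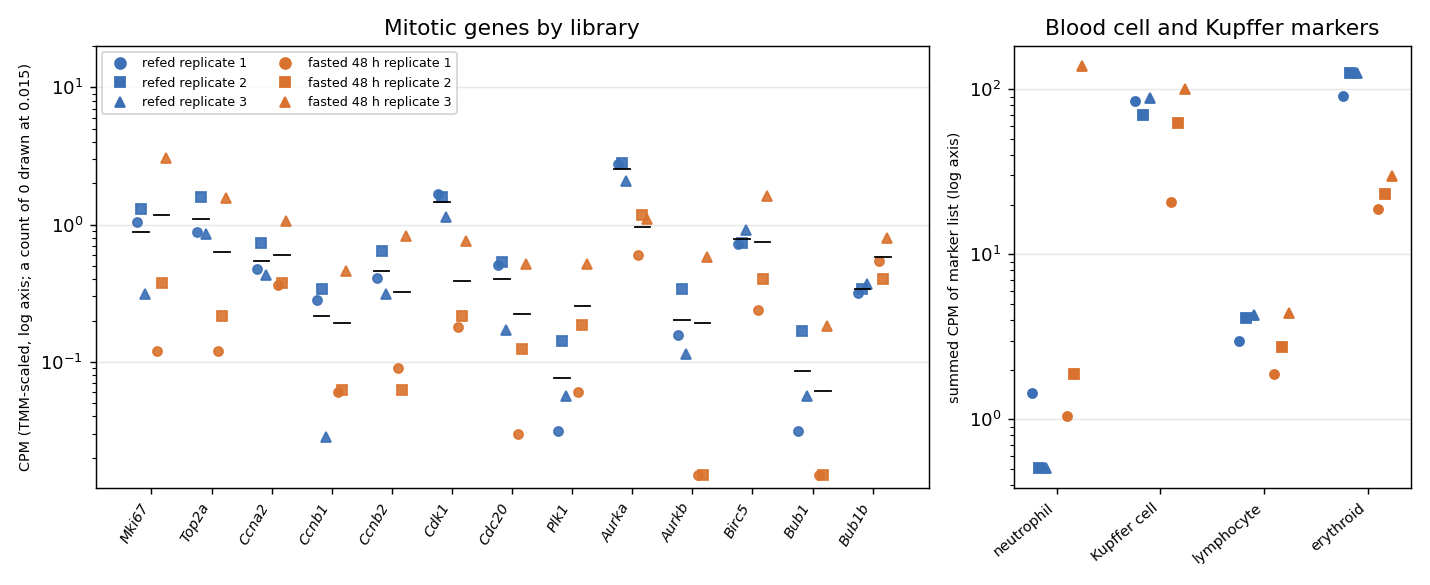
Left, CPM (log axis) of the 13 mitotic genes in refed (blue) and fasted (orange) libraries, with bars at the group means and a count of 0 drawn at 0.015. Right, summed CPM (log axis) of 4 marker lists in the same libraries; fasted replicate 3 (orange triangle) is the highest fasted library for 12 of the 13 genes and reaches 138 CPM for neutrophil markers.

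Of 49 other mitotic genes, 33 passed the filter, with 5 higher, 4 lower and 24 that did not pass, a median log2 fold change of -0.03. At 15.2% and 12.1%, both shares were below those of all tested genes (29.2% and 30.2%). Without fasted replicate 3, 9 were lower and 5 higher of 35, or 25.7% and 14.3%, beside 32.7% and 31.6% of all genes. The members of lowest p were Bub3, Fzr1 and Smc4. Bub3, of the spindle checkpoint, had 830, 982 and 953 reads in refed and 520, 550 and 518 in fasted livers (log2 fold change -0.74 with an SE of 0.10, adjusted p = 0.000443 by edgeR). Fzr1, which activates the anaphase-promoting complex in G1, had 279, 321 and 298 reads against 620, 486 and 702 (log2 fold change 1.07 with an SE of 0.15, adjusted p = 0.000502 by edgeR). Smc4, a condensin subunit, had 209, 277 and 304 reads against 432, 411 and 510 (log2 fold change 0.84 with an SE of 0.15, adjusted p = 0.0018 by edgeR). Each fasted library lay on the same side of the refed ones for these 3 genes, and fasted replicate 3 was the highest fasted library for Fzr1 and Smc4. Bub3 overlaps Fgfr2 and Fzr1 overlaps Mfsd12, and among the other genes named from wider lists Orc2 and Gadd45a also overlap an annotated neighbour.

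The CHR element, searched as TTTGAA on either strand, was in the windows of 5 of the 11 mitotic genes with a promoter at hand, and in 16.0% of windows of all genes. The CCAAT box was in 10 of the 11, beside 33.8% of all windows, but also in 10 of the 13 replication genes with a window. Top2a and Ccnb2 are shown because, like Cdc20, they hold both motifs (in capitals) and fell without fasted replicate 3 but did not pass with it.
Top2a (chr11:99024190-99024439, minus strand): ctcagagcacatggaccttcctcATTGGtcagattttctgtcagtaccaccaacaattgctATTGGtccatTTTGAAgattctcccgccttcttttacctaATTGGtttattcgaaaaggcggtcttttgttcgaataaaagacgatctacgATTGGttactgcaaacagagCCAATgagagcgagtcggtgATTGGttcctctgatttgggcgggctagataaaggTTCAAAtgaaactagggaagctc
Ccnb2 (chr9:70421555-70421804, minus strand): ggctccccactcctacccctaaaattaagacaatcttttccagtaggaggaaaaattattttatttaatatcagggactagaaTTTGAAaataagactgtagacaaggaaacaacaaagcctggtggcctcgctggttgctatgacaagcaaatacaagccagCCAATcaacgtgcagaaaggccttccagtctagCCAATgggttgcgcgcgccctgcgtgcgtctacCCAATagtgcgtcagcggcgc

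Set side by side, the classes differed in what fasted replicate 3 did to them. It was the highest fasted library for 12 of 13 mitotic and 10 of 14 replication genes, beside 40.5% of all tested genes. In the smaller classes it was so for 2 of 3 cyclin E and Cdk2 genes, 2 of 5 regulators and 0 of 5 D cyclins and kinases. The median log2 fold change of mitotic genes went from -0.32 to -1.79 without it, and that of replication genes from -0.75 to -0.90. The replication medians are over 13 and 14 genes, since Cdc6 (-3.33) entered without fasted replicate 3. They thus do not compare the same genes. Without that library the median of D cyclins and kinases went from 0.13 to 0.32 and that of the regulators from 0.53 to 0.51. For the cyclin E and Cdk2 genes it was -0.23 in both fits. Leaving out fasted replicate 1 or 2 instead gave the mitotic genes a median of 0.27 or 0.24. Those medians are over 11 genes, where 10 were tested with all libraries and without fasted replicate 3. The filter let in a further gene there, so they do not compare the same genes. The falls of Ccnd1, Ccnd2, Ccne2, Tyms, Cdk1, Aurka, E2f1 and E2f8 and the rises of Ccne1 and Cdkn2c passed under each alternative run that tested them. The difference between classes was not tested.

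**Figure D5:**
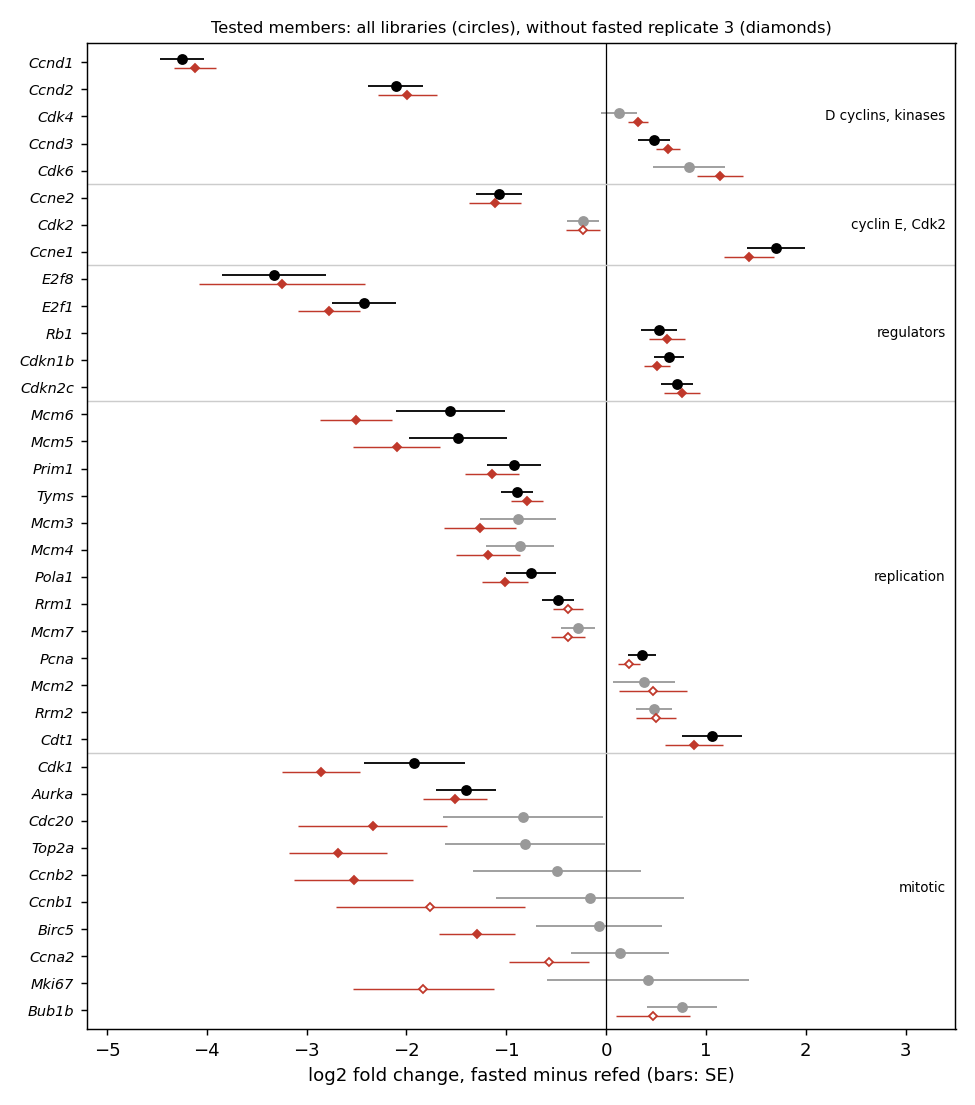
Log2 fold change, fasted minus refed, of the 36 tested genes with SE bars, by class. Circles use all libraries (black where the adjusted p is under 0.05, grey where not) and diamonds leave out fasted replicate 3 (filled where it passes); mitotic genes shift to the left without that library, with Top2a going from -0.81 to -2.69, while Ccnd1 stays near -4.25.

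Levels between genes were compared on the authors' deposited signal, normalized and divided by gene length in kb. The lengths behind it were under 0.5 of the longest GENCODE transcript for 18 of the 40 genes (0.088 for Rb1), so the comparison is kept to genes above that share. Among D cyclins in refed livers, Ccnd1 had 617 ± 76.6, Ccnd3 446 ± 53.0 and Ccnd2 25.7 ± 8.12 per kb (SD, n = 3 each). In fasted livers the order was Ccnd3 at 623 ± 113, Ccnd1 at 32.6 ± 9.77 and Ccnd2 at 5.98 ± 0.954 per kb (SD, n = 3 each). Cyclin D3 had thus the highest D cyclin level per kb in fasted livers, and cyclin D1 in refed ones. Subunits Mcm2 to Mcm6 had means of 38.2 to 61.4 per kb in refed livers, within each other's spread, and of 13.7 to 53.9 per kb in fasted livers, where Mcm2 was the highest. At the other end, Mki67 had 2.98 ± 1.72 and Plk1 1.18 ± 0.883 per kb in refed livers (SD, n = 3 each).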

How the data were processed

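Liver RNA of 6 samples was sequenced, 3 refed and 3 fasted for 48 h, and grouped by their titles. Per the file headers, the deposited table holds the authors' raw counts, their normalized signal, that signal per kb of gene length, and their own log2 fold change, p-value and adjusted p-value of fasted over refed, of which the last 3 were not used. The deposited count divided by the deposited signal was 1 constant per library. Per the submitters' processing notes, TopHat2 2.0.10, Bowtie2 2.1.0, HTSeq 0.5.4p3 and DESeq2 1.0.19 were used with mm9, without stated roles; the sources used here do not give counting settings or strand.

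The counts were tested here with edgeR 4.0.16 in R 4.3.3: filterByExpr by group with a minimum count of 10 (13248 genes kept), TMM factors, robust quasi-likelihood fits with the group as the only term, and Benjamini-Hochberg adjustment over the genes tested. The call threshold was an adjusted p of 0.05. SE was taken as the size of the log2 estimate over the root of its F value. CPM uses TMM-scaled library sizes. The fits were tested on simulated data. Members, the 3 wider lists and the 8 marker lists were chosen with earlier results of these data known. Reads were given for each called member, for D cyclins, cyclin E genes, regulators, Mki67 and Top2a, and statistics for the 3 called genes of lowest p in each wider list; others named were chosen after their values were seen. Alternatives were DESeq2 1.42.0, limma-voom (limma 3.58.1), other factors and filters, a replicate block, and omission of each library in turn. Promoter sequences are RefSeq's (GRCm38), and gene coordinates are the deposited table's (mm9). Erythroid marker Ahsp was not analysed here.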

Additional observations from a re-analysis of the deposited data

How the results depend on the processing

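Counts of changed genes over the table stayed within 1.5 times of 7866 under each alternative run (7068 to 8089, and 6562 to 8712 with 1 library left out). Among the members, 7 were higher, but 3 with library totals and 4 to 8 with 1 library left out; 13 were lower, and 12 to 17 under the other tools, factors and filters and 8 to 19 with 1 library left out. Estimates that changed sign had not passed in the test with all libraries. Mki67 turned to -0.49 with limma-voom, -0.35 with the replicate block and -1.83 without fasted replicate 3. Ccna2 turned to -0.01 with limma-voom, -0.06 with library totals, -0.02 without refed replicate 3 and -0.57 without fasted replicate 3. Ccnb1 turned to 0.06 and 0.33 without refed replicates 1 and 2, and to 0.27 and 0.26 without fasted replicates 1 and 2. Cdk4 turned to -0.09 with library totals and -0.01 without fasted replicate 1. Birc5 turned to 0.04 without refed replicate 3 and to 0.36 and 0.24 without fasted replicates 1 and 2. With 1 library left out, Mki67 ranged from -1.83 to 0.96, Ccna2 from -0.57 to 0.41, Ccnb1 from -1.76 to 0.33, Cdk4 from -0.01 to 0.32 and Birc5 from -1.29 to 0.36. The causes were not tested, beyond the libraries named. Same-numbered libraries did not deviate together (correlations of -0.0434, -0.0419 and -0.0912), so the replicate numbers were not taken as pairs; with the replicate block 7 members were higher and 13 lower, and 7340 genes changed. Under it the calls of Mcm6 and Pcna were lost (adjusted p = 0.0549 and 0.0862 by edgeR), and Mcm4 and Rrm2 passed (0.037 and 0.0402). Depth limits Cdc6 and the mitotic genes that had under 10 reads in a library.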
